A study of Mus musculus with 9 samples.

Results

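The PYHIN genes of mouse CD8+ T cells, the cytotoxic lymphocytes of adaptive immunity, were described in 9 RNA sequencing libraries by the symbols Mnda, Mndal, Ifi203, Ifi204, Ifi205, Pyhin1 and Aim2. All 7 members were listed among the 24391 genes of the count tables. They had been picked with their difference between LSD1i and NT in view, so the members' values in that comparison are a description and carry no test. In 4 libraries (LSD1i) the T cells were activated for 72 h with an LSD1 inhibitor added, where LSD1 is a histone demethylase encoded by Kdm1a that works in corepressor complexes. In 5 libraries (NT) the cells were activated for the same 72 h without it. All 9 cultures were kept in medium with interleukin 2 at 100 U/mL, and the sources used here do not give strain, age, inhibitor name or dose. The comparison asks how LSD1 inhibition during activation alters expression. Nothing in the labels ties a replicate number to an animal or a culture. P-values therefore describe the scatter among 9 libraries, some or all of which may be technical.

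PYHIN proteins pair a pyrin domain, which binds other pyrin domains, with 1 or more HIN domains, which bind double-stranded DNA. Many of the genes are induced by interferon and are best known in macrophages, where AIM2 assembles an inflammasome on cytosolic DNA and IFI204 acts upstream of STING to switch on interferon. In the mouse the genes form a single cluster whose members arose by duplication and whose copies remain alike in sequence. Much less is established about their use in T cells.

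The stretch of promoter around each annotated start is shown first because the members differ there in ways that can be read from the letters. The sequences are from RefSeq (build GRCm38.p6, chromosome 1, minus strand) and run 5′ to 3′ from 250 bases before the start to 50 bases from it on. Blocks of 10 capitals mark matches to the interferon-stimulated response element (ISRE), searched as GAAA, any 2 bases, then GAAA. Blocks of 6 capitals mark the core of the element bound by GFI1, a repressor that recruits LSD1, searched as AAATCA. Both strands were searched and no blocks overlap. The 5 genes shown are Mnda (RefSeq name Ifi211, chr1:173912997-173913296), Ifi205 (chr1:174031706-174032005), the related gene AI607873 (RefSeq name Ifi207, chr1:173741760-173742059), Mndal (second of its entries, chr1:173880138-173880437) and Ifi203 (first of its entries, chr1:173942443-173942742).
Mnda: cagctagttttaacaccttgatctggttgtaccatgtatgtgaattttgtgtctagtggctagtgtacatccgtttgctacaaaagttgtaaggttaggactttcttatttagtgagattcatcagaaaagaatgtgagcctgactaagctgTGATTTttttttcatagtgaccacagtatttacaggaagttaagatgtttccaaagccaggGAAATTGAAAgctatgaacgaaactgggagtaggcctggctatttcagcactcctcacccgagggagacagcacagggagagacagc
Ifi205: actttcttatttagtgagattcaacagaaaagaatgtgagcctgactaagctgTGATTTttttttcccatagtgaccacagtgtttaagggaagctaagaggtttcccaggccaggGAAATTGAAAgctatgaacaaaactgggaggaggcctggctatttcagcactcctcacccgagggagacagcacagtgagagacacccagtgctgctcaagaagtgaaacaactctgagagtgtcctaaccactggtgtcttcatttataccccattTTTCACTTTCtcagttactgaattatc
AI607873: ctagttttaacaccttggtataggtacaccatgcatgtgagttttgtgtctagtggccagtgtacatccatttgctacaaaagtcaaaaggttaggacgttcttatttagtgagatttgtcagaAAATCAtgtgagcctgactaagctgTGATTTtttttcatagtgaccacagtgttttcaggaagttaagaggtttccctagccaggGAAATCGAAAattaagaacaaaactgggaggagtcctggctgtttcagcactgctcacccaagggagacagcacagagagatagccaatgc
Mndal: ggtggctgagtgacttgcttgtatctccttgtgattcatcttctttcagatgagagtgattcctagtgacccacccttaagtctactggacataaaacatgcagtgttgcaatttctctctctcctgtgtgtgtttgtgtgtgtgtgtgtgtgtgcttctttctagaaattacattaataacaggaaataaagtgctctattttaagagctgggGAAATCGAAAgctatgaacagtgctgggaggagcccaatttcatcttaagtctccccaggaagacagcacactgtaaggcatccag
Ifi203: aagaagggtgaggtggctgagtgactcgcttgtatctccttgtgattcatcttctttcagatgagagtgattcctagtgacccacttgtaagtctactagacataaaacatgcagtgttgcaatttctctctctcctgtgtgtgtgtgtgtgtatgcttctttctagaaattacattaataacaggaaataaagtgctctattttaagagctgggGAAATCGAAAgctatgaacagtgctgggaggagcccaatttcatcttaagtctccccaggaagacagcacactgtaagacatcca

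Mnda and Ifi205 carried the same ISRE match, GAAATTGAAA, at positions −37 and −134 (the first printed base of the match, with the annotated start as position 1), and Ifi205 had a further match, TTTCACTTTC, at position 24. AI607873, Mndal and Ifi203 carried GAAATCGAAA, at positions −41, −36 and −35. Aligned locally, Mnda and Ifi205 were identical at 94.5% of 199 bases, AI607873 and Mnda at 88.4% of 294 bases, and Mndal and Ifi203 at 97.6% of 289 bases. The GFI1 core was present 1 time in Mnda (−98), 1 time in Ifi205 (−197) and 2 times in AI607873 (−126 and −101), 1 time in Ifi202b (−152) and 0 times in the windows of Mndal, Ifi203, Aim2 and Pyhin1. Over the cluster 4 of the 12 genes with a promoter held it. By the identities above, Mnda is a near copy of Ifi205 and of AI607873, so their cores are not independent matches. AI607873 was named after its values were seen. The windows of Aim2 and Pyhin1, which are not printed, held neither the ISRE nor the GFI1 core. Of the 13 genes of the cluster, 12 had a promoter in the RefSeq table and 9 of these held an ISRE match, whereas 3.44% of all 32851 RefSeq promoters of this length did. Among the members, 6 of 7 had a promoter, all but Ifi204, and 4 of these held the ISRE. The GFI1 core occurred in 14.0% of all promoters. The interferon gamma element searched as TTCNNNGAA occurred in 8.30% of all promoters and in 0 of the members' windows. A match is a run of letters and says nothing of binding.

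The raw and the batch-corrected count tables name 4 of the 9 libraries differently, and the size of the members' differences depends on this. The genes at 0 matched exactly for 1 pair of libraries each, 1 from either table, and every other pairing left at least 1336 genes at 0 on one side only. The libraries that the batch-corrected table calls LSD1i 1, LSD1i 2, NT 1 and NT 2 have their groups exchanged in the raw table, where they appear as NT 1, NT 2, LSD1i 1 and LSD1i 2 in that order. The other 5 libraries carry the same name in both. The labels do not say which names are right. Trpm6, a magnesium channel gene with a wide gap between the groups, had 23.6 and 28.1 raw CPM in LSD1i 3 and 4 and 0 to 0.226 raw CPM in NT 3 to 5, the libraries named alike. By the batch-corrected names it had 14.9 and 17.7 raw CPM in LSD1i 1 and 2 and 0.106 and 0 raw CPM in NT 1 and 2, and the raw names turn this round. Names below are those of the batch-corrected table, and calls are also read in the 5 libraries named alike.

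The raw libraries held 15164000 to 29245300 counted reads, with 14039 to 17020 genes detected. NT 1 stood apart, with 13.3% of its reads on Rn45s, the ribosomal RNA precursor, against 1.66% to 2.87% in the others. Kdm1a was at 120 ± 5.77 CPM in LSD1i and 126 ± 13.1 CPM in NT (SD, n = 4 and 5; log2 fold change −0.07 ± 0.09 SE), which is no check of the labels because the inhibitor acts on the protein. Gfi1 was at 322 ± 30.4 CPM in LSD1i and 134 ± 12.5 CPM in NT. Of the genes that define the labelled cells, Cd8a was at 484 ± 20.6 CPM in LSD1i and 373 ± 29.9 CPM in NT, and Cd3e was at 48.0 ± 22.1 CPM in LSD1i and 57.8 ± 32.1 CPM in NT. Cd4 had at most 7 raw reads in any library and Lyz2 at most 1.

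CPM here are batch-corrected counts over the TMM-adjusted library size, and log2 fold changes (± SE) are LSD1i over NT from edgeR's quasi-likelihood fit across 11981 genes. In that fit 3.31% of genes passed an adjusted p under 0.05, 2.15% higher and 1.16% lower in LSD1i. The low-count filter was met by 6 of the 7 members. Of these, Mnda and Ifi204 passed, both higher in LSD1i. CPM did not overlap between LSD1i and NT libraries for 3 of the 6, against 4.41% of all tested genes in the direction of higher in LSD1i. In other fits 2 members were called with the library set as a term on raw counts (1.85% of genes) and with RLE scaling (3.26%), 3 of 7 without the low-count filter (1.98%) and 4 of 7 in DESeq2 (4.85%). Since the members were chosen on this contrast, nothing is read from these counts.

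Mnda and Ifi204, and at a trace level Ifi205, were higher in LSD1i than in NT. Mnda encodes the mouse relative of the human myeloid cell nuclear differentiation antigen. It stood at 17.8, 28.9, 31.5 and 29.2 CPM in LSD1i 1 to 4, against 3.55, 4.42, 4.36, 3.12 and 1.91 CPM in NT 1 to 5. Every LSD1i library was above every NT library, and LSD1i 1 was the lowest of its group. The log2 fold change was 2.96 ± 0.23, with means of 26.9 ± 6.14 CPM in LSD1i and 3.47 ± 1.03 CPM in NT (SD, n = 4 and 5). The raw reads behind these values were 412, 535, 555 and 625 in the LSD1i libraries and 103, 63, 92, 53 and 32 in the NT libraries. In bulk RNA, more cells of a type that expresses a gene and more RNA per cell cannot be told apart.

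Ifi204 encodes a DNA sensor of mouse macrophages and was the lower of the pair. It had 4.08, 7.84, 7.73 and 8.41 CPM in LSD1i 1 to 4, against 0.953, 1.58, 0.426, 0.898 and 1.42 CPM in NT 1 to 5. The groups again did not overlap, and LSD1i 1 again had the lowest value of the LSD1i libraries. Its log2 fold change was 2.75 ± 0.31, with means of 7.01 ± 1.98 CPM in LSD1i and 1.06 ± 0.459 CPM in NT. Leaving out each library in turn kept the log2 fold change between 2.81 and 3.11 for Mnda and between 2.54 and 2.93 for Ifi204.

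Ifi205, an interferon-inducible nuclear protein gene, was close to the limit of detection and did not meet the filter in either group. Its raw reads were 1, 5, 13 and 8 in the LSD1i libraries, against 0, 0, 1, 0 and 0 in the NT libraries. The summed 27 reads in LSD1i and 1 read in NT gave a ratio per counted read of 37.6 (95% exact interval 6.19 to 1538, which covers counting error only). AI607873, which is no member, had a like pattern at the same trace level, with 2, 9, 4 and 5 raw reads in LSD1i 1 to 4 and 1, 0, 2, 0 and 0 in NT 1 to 5 (ratio 9.28, interval 2.75 to 48.7). Of the 50-base stretches of the longest Ifi205 transcript, 49.5% also occur in Mnda. For AI607873, 4.39% occur in any other gene of the cluster.

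**Figure D1:**
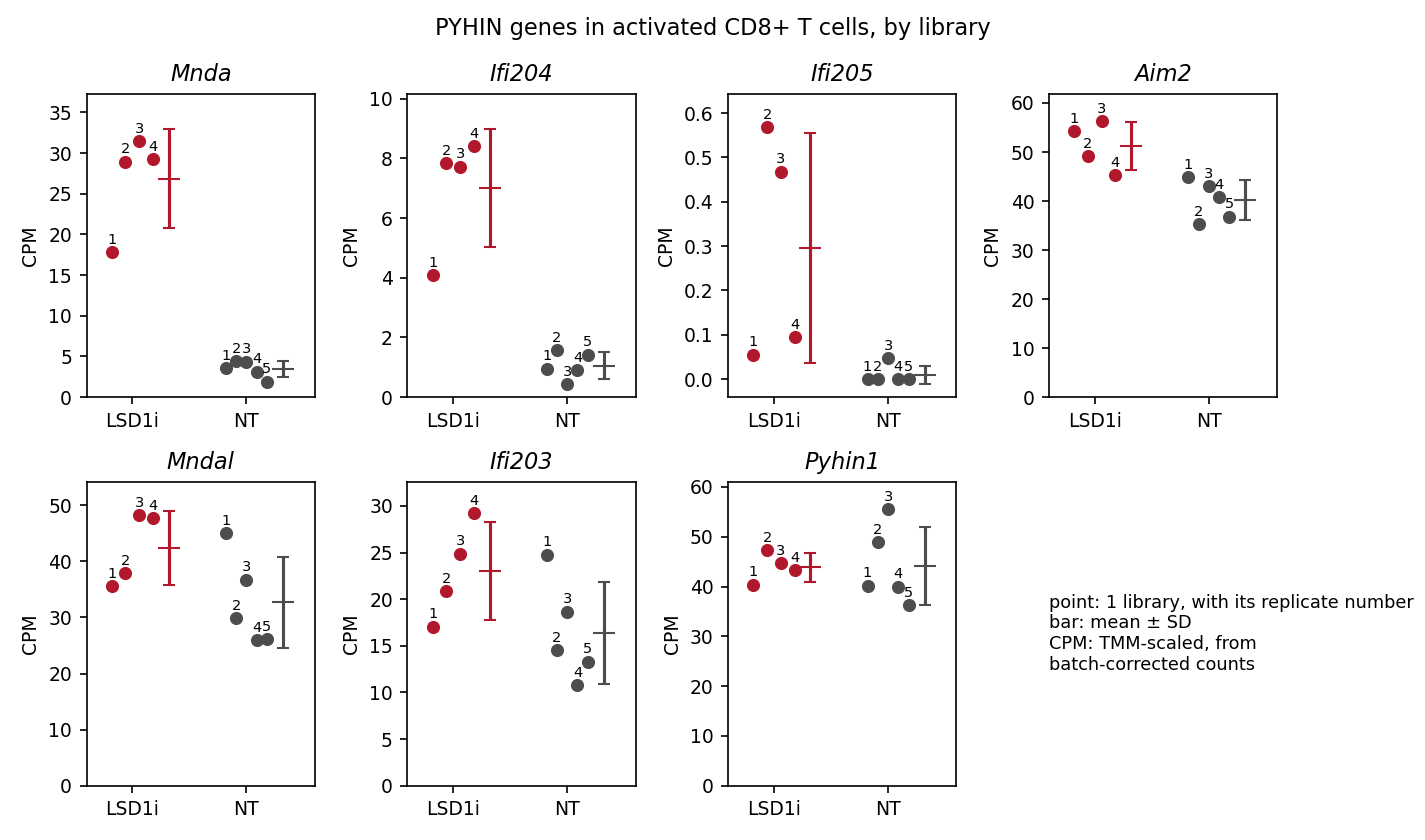
TMM-scaled CPM from batch-corrected counts (vertical axes, each from its own range) of the 7 PYHIN genes in 4 LSD1i libraries (red) and 5 NT libraries (grey). Points are libraries with their replicate number, and bars are the mean ± SD. Mnda, Ifi204, Ifi205 and Aim2 show LSD1i libraries above NT libraries. For Aim2 the gap is narrow, and for Ifi205 it is 1 read in LSD1i 1 against 1 read in NT 3. Pyhin1 shows means of 43.9 CPM in LSD1i and 44.2 CPM in NT.

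Aim2, Mndal, Ifi203 and Pyhin1 differed little beside Mnda and Ifi204, and none of the 4 passed the threshold. Aim2, the DNA-binding subunit of the AIM2 inflammasome, was at 54.2, 49.2, 56.3 and 45.2 CPM in LSD1i 1 to 4, against 44.9, 35.3, 43.0, 40.8 and 36.8 CPM in NT 1 to 5. The groups did not overlap, but the lowest LSD1i library, LSD1i 4, lay just above the highest NT library, NT 1. The log2 fold change was 0.35 ± 0.10, with means of 51.2 ± 4.98 CPM in LSD1i and 40.2 ± 4.06 CPM in NT.

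Mndal and Ifi203 encode interferon-inducible nuclear proteins, and their values overlapped between the groups. Mndal had 35.6, 37.9, 48.2 and 47.7 CPM in LSD1i 1 to 4, against 44.98, 29.9, 36.7, 26.0 and 26.1 CPM in NT 1 to 5, a log2 fold change of 0.37 ± 0.17. Ifi203 had 17.1, 20.8, 24.9 and 29.2 CPM in LSD1i 1 to 4, against 24.8, 14.5, 18.7, 10.8 and 13.3 CPM in NT 1 to 5, a log2 fold change of 0.48 ± 0.23. For both genes NT 1, the library with 13.3% Rn45s, was the highest of the NT libraries. Without NT 1 the log2 fold change was 0.52 for Mndal and 0.69 for Ifi203, and neither passed.

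Pyhin1, whose human namesake encodes the nuclear protein IFIX, showed the smallest difference of the tested members. It had 40.3, 47.4, 44.7 and 43.3 CPM in LSD1i 1 to 4, against 40.1, 48.9, 55.5, 40.0 and 36.2 CPM in NT 1 to 5. The NT libraries spanned the whole range of the LSD1i libraries, and the log2 fold change was −0.01 ± 0.12. In the authors' deposited table, Mnda (2.97), Ifi204 (2.75) and Ifi205 (4.25, log2 fold change) are marked as up, among 94 genes marked up and 44 marked down of 20052. The other 4 members are marked as not significant in the authors' deposited table. The authors' F test gave Ifi205 an adjusted p of 0.0486. The authors' cutoffs for a mark are not given here, so the numbers marked are not set against the calls above.

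The same contrast was then read from raw counts within each set of libraries, LSD1i 3 and 4 against NT 3 to 5, which both tables name alike, and LSD1i 1 and 2 against NT 1 and 2, whose names are crossed. In the libraries named alike, the log2 fold change was 3.45 ± 0.36 for Mnda and 3.19 ± 0.43 for Ifi204, and both passed where 0.969% of 12078 genes did. In the crossed libraries it was 2.63 ± 0.22 for Mnda, which passed, and 2.33 ± 0.40 for Ifi204, which did not, where 0.0676% of 11837 genes did. These libraries are among those on which the members were chosen, so nothing is read from these calls. Aim2 gave 0.32 ± 0.15 in the libraries named alike and 0.35 ± 0.18 in the crossed ones. Pyhin1 gave 0.02 ± 0.15 in the first and −0.02 ± 0.21 in the second.

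Mndal and Ifi203 lay near 0 in the crossed libraries, which include NT 1, the library with 13.3% Rn45s. There Mndal had 41.6 and 43.3 raw CPM in LSD1i 1 and 2, against 44.2 in NT 1 and 35.3 in NT 2. Ifi203 had 19.7 and 23.3 raw CPM in LSD1i 1 and 2, against 25.9 in NT 1 and 16.3 in NT 2. How far the values near 0 and the difference between the sets rest on NT 1 was not tested. Mndal gave a log2 fold change of 0.84 ± 0.21 in the libraries named alike and 0.07 ± 0.19 in the crossed ones. Ifi203 gave 0.98 ± 0.25 in the libraries named alike and 0.00 ± 0.27 in the crossed ones. The interaction of set and treatment did not pass for any of the 6 members in edgeR's quasi-likelihood test. Its estimate, libraries named alike minus crossed, was 0.74 ± 0.30 for Mndal, 0.95 ± 0.39 for Ifi203 and 0.78 ± 0.48 for Mnda, each with an adjusted p of 0.764, and 0.83 ± 0.66 for Ifi204 (adjusted p = 0.771). For Aim2 it was −0.054 ± 0.23 and for Pyhin1 0.0050 ± 0.26. Across 11916 genes it passed for 0, with 581 at an unadjusted p under 0.05. With the raw table's own names over all 9 libraries, 0 of 11916 genes passed, and the log2 fold change was 0.63 for Mnda, 0.54 for Ifi204, 0.40 for Mndal, 0.50 for Ifi203, 0.01 for Aim2 and −0.05 for Pyhin1, each with the sign it had before.

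**Figure D2:**
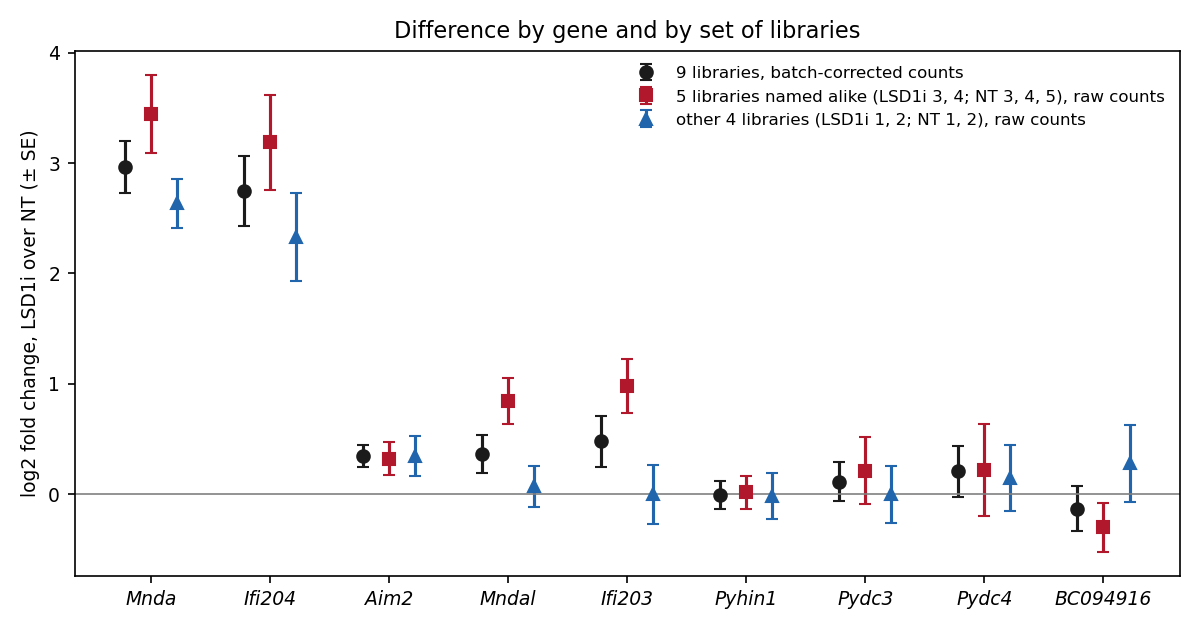
Log2 fold change of LSD1i over NT (vertical axis, bars ± SE) for 6 members and 3 other PYHIN genes over all 9 libraries (black circles), the 5 libraries named alike (red squares) and the other 4 libraries (blue triangles). Mnda and Ifi204 lie between 2.33 and 3.45 in every set, and Mndal and Ifi203 lie near 0 in the other 4 libraries.

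A contrast that played no part in the choice of members is that between the sets, replicates 3 to 5 over replicates 1 and 2, with treatment in the model. The batch correction in the deposited data separates the same sets. Pyhin1 was higher in replicates 3 to 5, with 52.2 and 51.0 raw CPM in LSD1i 3 and 4 and 60.3, 48.6 and 45.1 raw CPM in NT 3 to 5. Replicates 1 and 2 had 31.1 and 37.3 raw CPM in LSD1i and 29.2 and 39.2 raw CPM in NT. The sets did not overlap, and the log2 difference was 0.59 ± 0.13 (adjusted p = 0.00446, edgeR). That is 1 of the 6 tested members, where 38.7% of all genes passed. Aim2 (0.29 ± 0.11), Mndal (−0.34 ± 0.18), Ifi203 (−0.35 ± 0.24), Ifi204 (−0.10) and Mnda (0.01) did not pass. Aim2 also passed when LSD1i 4, NT 1 or NT 5 was left out, which made 2 of 6.

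To compare levels between members, CPM was divided by the length of the longest protein-coding transcript in the GENCODE M21 annotation, which is not the annotation behind the counts. In LSD1i the order was Mndal (20.9 ± 3.24 CPM per kilobase), Aim2 (18.05 ± 1.75), Mnda (15.1 ± 3.44), Pyhin1 (12.8 ± 0.848), Ifi203 (6.13 ± 1.40), Ifi204 (3.05 ± 0.861) and Ifi205 (0.184 ± 0.161). In NT it was Mndal (16.2 ± 4.01), Aim2 (14.2 ± 1.43), Pyhin1 (12.8 ± 2.29), Ifi203 (4.37 ± 1.46), Mnda (1.94 ± 0.576), Ifi204 (0.460 ± 0.200) and Ifi205 (0.00587 ± 0.0131). Neighbours among Mndal, Aim2, Mnda and Pyhin1 in LSD1i, and among Mndal, Aim2 and Pyhin1 in NT, were no further apart than the larger of their SDs. By full transcript length Mnda thus stood beside Aim2 and Pyhin1 in LSD1i and below Ifi203 in NT. Its NT range of 1.07 to 2.47 did not overlap that of Ifi203, 2.87 to 6.60. No length was taken off for stretches shared with other genes of the cluster. These hold 72.9% of the 50-base windows of Mnda and 5.86% of those of Ifi203. If reads in such stretches were not counted, the level of Mnda is understated, so its place in the order is uncertain.

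**Figure D3:**
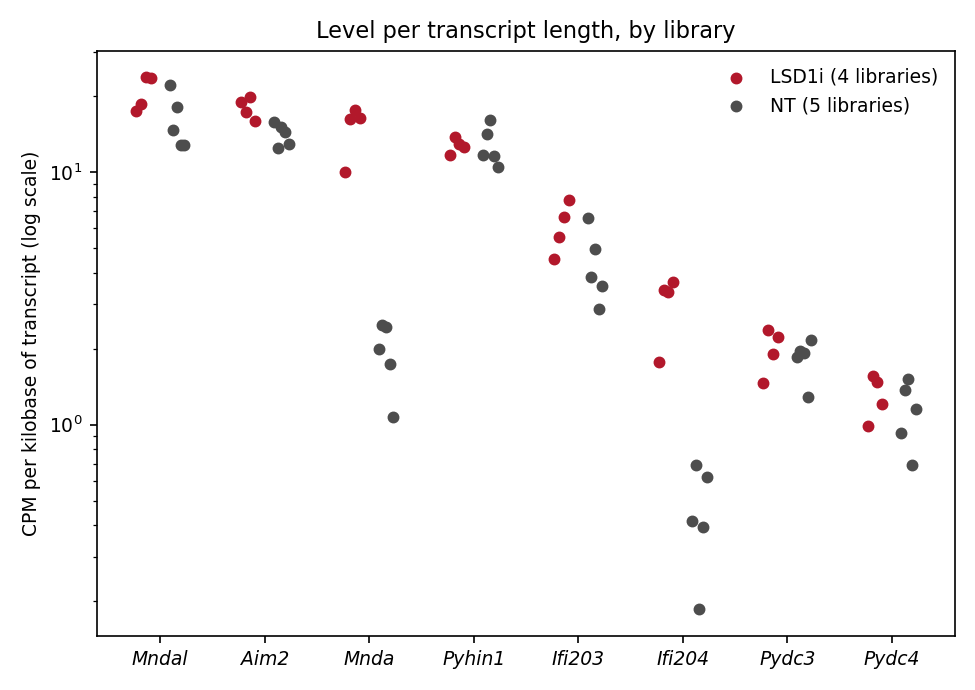
CPM per kilobase of transcript on a log axis for 8 PYHIN genes, ordered by their mean in LSD1i, with LSD1i libraries in red and NT libraries in grey. Mnda ranges from 9.99 to 17.6 in LSD1i and from 1.07 to 2.47 in NT, and Ifi204 lies below it in both groups.

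The duplicated genes share exact stretches of transcript, which limits how far a read can be given to one of them. In the longest transcripts, 72.9% of the 50-base windows of Mnda also occur in another gene of the cluster, 44.6% in Ifi205, 30.0% in Ifi204, 17.1% in Mndal and 4.95% in AI607873. For Ifi205 the share was 49.6%, nearly all of it with Mnda (49.5%), and for Ifi204 it was 29.7%, with 23.2% of all its windows also in Mnda. Mndal shared 26.4% of its windows, 14.97% with Mnda, 13.3% with Ifi205, 9.66% with Ifi204 and 5.51% with Ifi203. Ifi203 shared 5.86% and Aim2 shared 0%. Pyhin1 shared 34.7%, all with Ifi214, a gene that is not listed under that name in the count tables. At 100 bases the shares were 56.9% for Mnda, 41.5% for Ifi205, 16.8% for Ifi204, 17.9% for Pyhin1, 7.63% for Mndal and 2.22% for Ifi203. The sources used here do not say how the authors' counting treated reads that match several genes, so the split of reads among Mnda, Ifi204, Ifi205 and Mndal, and between Pyhin1 and Ifi214, is uncertain.

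**Figure D4:**
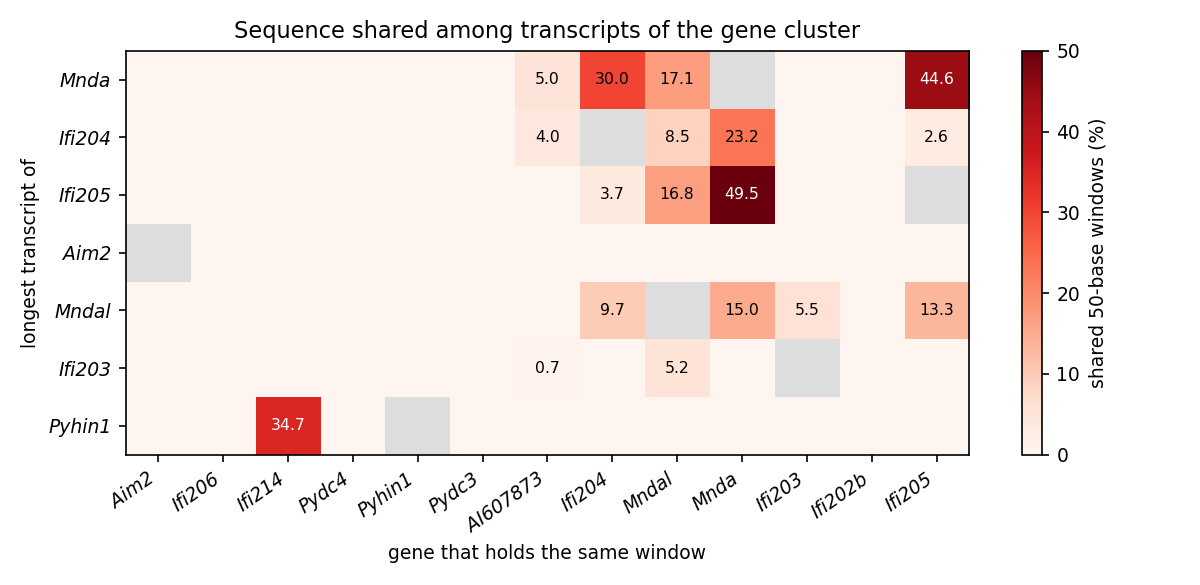
Share (%, colour scale) of the 50-base windows of each member's longest transcript (rows) that occur in another gene of the cluster (columns, in chromosome order). Grey cells are a gene against itself, and the darkest cells join Mnda and Ifi205 at 44.6% and 49.5%.

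The remaining PYHIN genes were level or barely detected. Of the 20 names on that list, 5 were listed and 3 were tested, and 0 passed in edgeR (0 at an unadjusted p under 0.05, and 0 of 4 in DESeq2). Pydc3 (RefSeq name Ifi208) gave 0.12 ± 0.18, Pydc4 (RefSeq name Ifi213) 0.21 ± 0.23 and BC094916 −0.13 ± 0.20 on the log2 scale, with overlapping groups in each. Ifi202b had 0 reads in all 9 libraries. The 20 protein-coding genes next to the cluster, 10 on each side and mostly olfactory receptors, gave no comparison, since 12 had 0 reads and none exceeded 18 raw reads.

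Over the 9 libraries, the gene whose centred log2 CPM profile was nearest to that of Mnda was Maged1 (root-mean-square difference 0.372), followed by Pld4 (0.435) and Armcx2 (0.466). For Ifi204 the nearest were Armcx2 (0.389), Pld4 (0.405) and Rxra (0.413). Mnda and Ifi204 were 0.558 apart. The nearest genes were picked as the smallest distances among many, so distances between members are not ranked against them. The pseudocount of 0.5 also damps the profile of Ifi204, whose NT values are low. Mndal and Ifi203 were near each other (0.140), while Mndal was nearest to Mt1 (0.0885), Tespa1 (0.114) and Map4 (0.117), and Ifi203 to Spats2 (0.157), Mt1 (0.188) and Hilpda (0.200). Pyhin1 was nearest to Rmrp (0.0544), Vamp8 (0.0557) and Epsti1 (0.0817), and Aim2 to Neurl3 (0.0504), Cux1 (0.0600) and Kcnq5 (0.0622).

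The inflammasome genes that act with AIM2 did not pass in either direction. Of 24 listed genes 13 were tested, with a median log2 fold change of −0.04, against −0.02 over all tested genes. None passed in edgeR, 5 had an unadjusted p under 0.05, and 1 of 17, Gsdmd, passed in DESeq2. The share of all tested genes at an unadjusted p under 0.05 was not computed. Such counts, for this and the lists below, are therefore not read as a shift of the list. Pycard, the adaptor that joins AIM2 to caspase 1, was at 66.1 ± 6.87 CPM in LSD1i and 71.7 ± 8.76 CPM in NT. Casp1, the protease itself, was at 8.65 ± 1.74 CPM in LSD1i and 7.61 ± 1.55 CPM in NT. Gsdmd, the pore-forming substrate, was at 45.2 ± 1.89 CPM in LSD1i and 38.4 ± 0.709 CPM in NT (log2 fold change 0.24 ± 0.07, adjusted p = 0.103). Il18, a cytokine matured by caspase 1, was at 1.38 ± 0.253 CPM in LSD1i and 0.899 ± 0.301 CPM in NT (adjusted p = 0.291).

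Among genes of cytosolic DNA sensing, 34 were tested, 0 were higher and 1 was lower in LSD1i, with a median of −0.03. The gene that fell was Enpp1, which hydrolyses the cGAMP made by cGAS. It had 9.55, 12.3, 10.1 and 8.74 CPM in LSD1i 1 to 4, against 13.9, 15.03, 14.4, 19.2 and 14.8 CPM in NT 1 to 5 (log2 fold change −0.61 ± 0.13, adjusted p = 0.0288). The call was lost with the library set as a term on raw counts (adjusted p = 0.105) and in the 5 libraries named alike (0.0940). The log2 fold changes in these fits were −0.55 and −0.73. Mb21d1, which encodes cGAS, was at 11.4 ± 1.74 CPM in LSD1i and 12.9 ± 1.41 CPM in NT, and Tmem173, which encodes STING, was at 108 ± 2.56 CPM in LSD1i and 110 ± 13.2 CPM in NT. Log2 fold changes were 0.09 for the kinase gene Tbk1, 0.01 for Irf3, 0.02 for the nuclease gene Trex1 and 0.04 for Zbp1, and none of these passed. The list of RNA sensors, used as a neighbouring pathway, had 16 tested genes and a median of −0.00, with 0 passing in edgeR on group alone, 2 at an unadjusted p under 0.05 and 0 of 16 in DESeq2. Its members Ddx58 and Ifih1 gave 0.03 ± 0.11 and −0.25 ± 0.11.

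Genes of interferon receptors and signalling, which stand upstream of the ISRE, gave 0 calls among 20 tested in edgeR, with 2 at an unadjusted p under 0.05, 0 of 21 in DESeq2 and a median of 0.05. The transcription factor genes Irf7 and Irf8 gave log2 fold changes of 0.15 and 0.16, and the receptor genes Ifngr1 and Ifnar1 gave 0.02 and −0.00. Ifng, the interferon made by the T cells themselves, was at 353 ± 154 CPM in LSD1i and 769 ± 384 CPM in NT, with overlapping groups (−1.12 ± 0.37, adjusted p = 0.155). Without NT 1 it passed (−1.29, adjusted p = 0.0488).

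Of 66 tested interferon-stimulated genes, 1 rose and 3 fell in LSD1i, with a median of 0.04. That is 6.06% called, against 3.31% of all tested genes, and whether the list differs from all genes was not tested. An unadjusted p under 0.05 was seen for 14 of the 66, a count with no share of all genes to set it against. DESeq2 called 7 of 68, where it called 4.85% of all genes. Gbp2, a guanylate-binding protein, averaged 504 ± 47.5 CPM in LSD1i and 334 ± 35.2 CPM in NT (0.59 ± 0.10, adjusted p = 0.00713). Ifitm2, a membrane protein that restricts viral entry, averaged 15.4 ± 2.64 CPM in LSD1i and 32.8 ± 5.92 CPM in NT (−1.09 ± 0.15, adjusted p = 0.00213). Isg20, an exonuclease, averaged 9.29 ± 1.06 CPM in LSD1i and 14.96 ± 1.32 CPM in NT (−0.68 ± 0.11, adjusted p = 0.00566). Slfn5, of the Schlafen family, averaged 11.99 ± 1.71 CPM in LSD1i and 17.3 ± 1.84 CPM in NT (−0.52 ± 0.12, adjusted p = 0.0417). The classical targets Isg15 and Ifit1 were at 47.2 ± 5.12 and 20.0 ± 4.07 CPM in LSD1i, and at 51.1 ± 8.39 and 21.5 ± 1.14 CPM in NT. Over the 6 pathway lists together, 1 of 152 tested genes rose and 4 fell. That is 3.29%, close to the 3.31% of all genes, but 4 of these 5 calls came from the interferon-stimulated list. The call of Slfn5 was lost with the library set as a term (adjusted p = 0.087). In the 5 libraries named alike Ifitm2 kept its call (log2 fold change −1.41, adjusted p = 0.0376). Calls were lost there for Gbp2 (0.83, adjusted p = 0.0683), Isg20 (−0.60, 0.119) and Slfn5 (−0.36, 0.353), in a fit with fewer libraries. Over these lists only 3 calls, those of Gbp2, Ifitm2 and Isg20, were made when LSD1i 1, LSD1i 3, LSD1i 4, NT 2, NT 3 or NT 4 was left out.

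**Figure D5:**
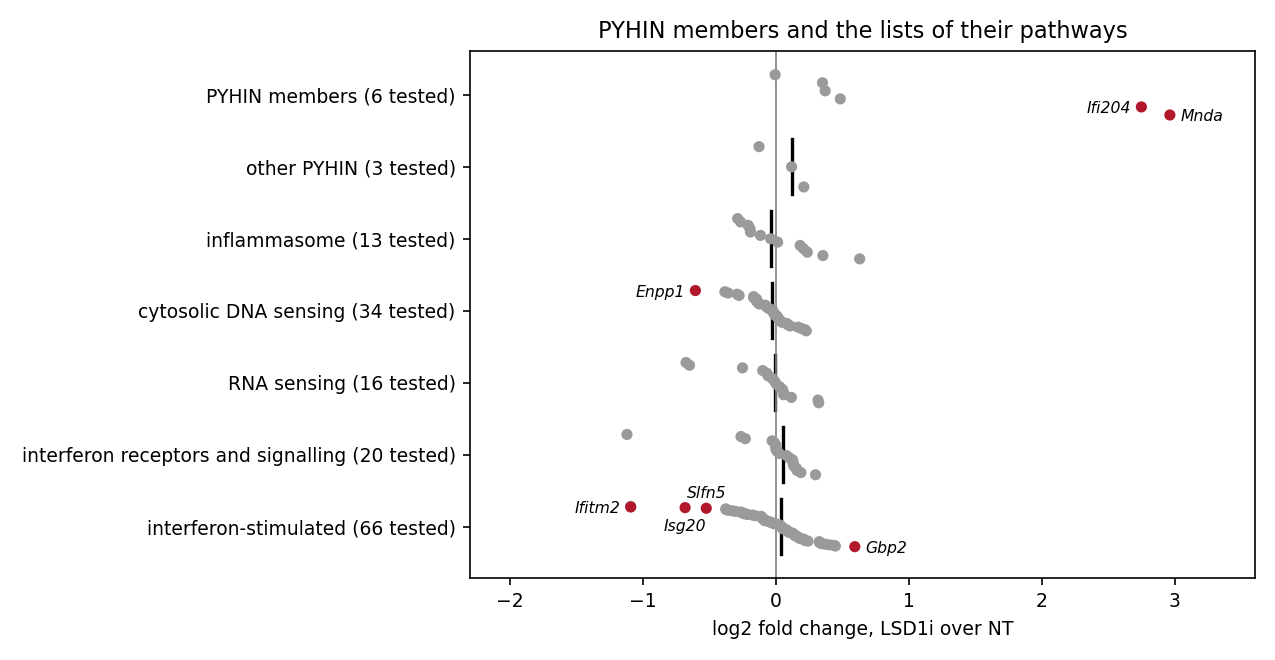
Log2 fold change of LSD1i over NT (horizontal axis) for the 6 tested PYHIN members and the tested genes of 6 lists. Each point is a gene, red where the adjusted p is under 0.05, and black lines are list medians, which lie between −0.04 and 0.12.

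Markers of other cells were read beside Mnda, Ifi204 and Ifi205 because these genes are best known from myeloid cells. Of 32 listed myeloid markers 5 met the filter, and 25 had at most 10 counts in every library. S100a8, S100a9, Elane, C1qa and C1qc were at 0 in all 9 libraries, and Csf1r, Cd14 and Lyz2 had at most 1 count in any. The summed level of the list was 150 to 195 CPM in LSD1i (median 162) and 129 to 181 CPM in NT (median 164). Its largest parts were Ctss, Batf3 and Cebpb, with log2 fold changes of 0.83, −0.86 and −0.56, and Batf3 and Cebpb did not pass. Such opposite shifts offset each other, so a level sum does not speak for each marker. The 1 marker that passed (2 of 12 in DESeq2) was Ctss, a lysosomal protease also made by lymphocytes, at 102 ± 4.50 CPM in LSD1i and 57.3 ± 4.57 CPM in NT (0.83 ± 0.08), and 0 were lower. Of 10 listed B cell markers 3 were tested. Cd22 was higher (3.52 ± 0.54), and Cd79b (−0.43 ± 0.09) and Ebf1 (−1.23 ± 0.30) were lower (2 of 3 called in DESeq2), with a summed level of 10.3 to 11.9 CPM in LSD1i and 12.05 to 13.1 CPM in NT. Of 10 natural killer and CD4 markers 4 were tested and Cd40lg was higher (3.58 ± 0.54), with a summed level of 42.4 to 49.4 CPM in LSD1i and 37.97 to 50.4 CPM in NT. All 12 T cell and CD8 markers were tested, and only Cd8a passed in edgeR (0.38 ± 0.08; 3 of 12 in DESeq2), with a summed level of 3429 to 3602 CPM in LSD1i and 3129 to 3444 CPM in NT. Of these marker calls, Ctss alone held in the 5 libraries named alike (adjusted p = 0.0313). There Cd22 (0.0862), Cd40lg (0.152), Cd79b (0.213), Ebf1 (0.249) and Cd8a (0.396) did not pass. In that fit the log2 fold changes were 3.65 for Cd22, 3.53 for Cd40lg, −0.50 for Cd79b, −1.54 for Ebf1 and 0.29 for Cd8a. It holds fewer libraries, so a lost call alone does not show a smaller difference. The calls of Cd79b (adjusted p = 0.132) and Cd8a (0.126) were also lost with the library set as a term, and that of Ebf1 in DESeq2 (0.141). The part of B cell and natural killer transcripts in the members' values was not tested.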

How the data were processed

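RNA from mouse CD8+ T cells was measured in 4 LSD1i and 5 NT libraries, grouped by sample title. Per the submitters' processing notes, STAR, featureCounts, edgeR and build mm9 were used. The sources used here do not give versions, strand setting or batch method. Without a stated strand, reads of overlapping or antisense genes may be mixed. The authors deposited raw read counts for 24391 genes, estimated counts after a batch correction, and a results table of their comparison, which holds p-values, log2 fold changes, average log2 CPM and the F score. The estimated counts were rounded to whole numbers. Library sets were read off the corrected-to-raw ratio of the counts (log2, pseudocount 0.5, 9618 genes averaging at least 100 counts), whose deviations correlated at 0.755 to 0.980 within and −0.962 to −0.790 between sets.

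Genes were tested with edgeR 4.0.16 (R 4.3.3; quasi-likelihood, TMM, filterByExpr with minimum count 10 and total 15, Benjamini-Hochberg at 0.05, 11981 genes) on group alone, for all adjusted p-values given without another tool. The test charges nothing for the correction already made, so fits of raw counts with the set as a term were run beside it. The interaction test was added later. DESeq2 1.42.0, RLE scaling, no filter, a replicate block and leaving out each library were alternatives. The script was tested on simulated data. Intervals cover counting error only.

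The members and lists were chosen with earlier results of these data known. Lists were other PYHIN, inflammasome, cytosolic DNA sensing, RNA sensing, interferon receptors and signalling, interferon-stimulated, chromosome neighbours, and markers of myeloid cells, B cells, natural killer and CD4 cells, and T and CD8 cells. Named genes were the members, fixed anchors (a few are not reported here), up to 5 genes per list that passed, and the 3 nearest profiles per member among genes averaging a log2 CPM of 2 or more. Rn45s, Trpm6, Ly6a, Oasl1, Csf1r, Cd14, Batf3, Cebpb, the myeloid markers at 0, AI607873 and the other PYHIN genes were named after their values were seen. Motifs, alignments and shared windows were computed in Python 3.11.15 with Biopython 1.88 from RefSeq promoters (GRCm38.p6) and GENCODE M21 transcripts. Member symbols were matched to RefSeq through its synonyms.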

Additional observations from a re-analysis of the deposited data

Results flagged for a closer look

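Each member's CPM was checked for a library far from the rest of its group, over 14 groups, of which chance alone would flag about 1 in 20. Ifi204 in LSD1i 1 was flagged, at 4.08 CPM against 7.73 to 8.41 CPM in the other LSD1i libraries and at most 1.58 CPM in NT. Ifi205 in NT 3 was flagged, at 0.0474 CPM, which is the only read of that gene in NT. The interaction of set and treatment passed for 0 of the 6 members tested.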

How the results depend on the processing

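The number of members called, 2 of 6, was 0 with the raw table's own names, 1 in the crossed 4 libraries and 4 with DESeq2, which added Ifi205 and Aim2, and it was 3 of 7 without the low-count filter. It was 2 in the fits with RLE scaling, with the set as a term and in the 5 libraries named alike, and also 2 whichever single library was left out. Pathway list calls, 5 in the main analysis, numbered 0 with the raw table's own names, 3 with the set as a term, 1 in the 5 libraries named alike, 0 in the other 4, 9 with DESeq2 and 3 to 5 with each library left out. Chromosome neighbours gave 0 calls in every fit, which carries no weight, since 0 of the 20 met the filter in the main analysis. Members called between the sets numbered 1 to 2 with each library left out. With the raw table's own names the log2 fold change of genes called in the main analysis reversed for Cd22 (−0.43), Cd8a (−0.037), Isg20 (0.091), Maged1 (−0.058), Rxra (−0.61) and Slfn5 (0.12). That alternative swaps the groups of 4 libraries, and the cause of the other changes was not tested.

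Samples with the same replicate number did not deviate together (correlations −0.107, 0.317, 0.100 and −0.325 for numbers 1 to 4), and 0 of 4 LSD1i libraries correlated best with the NT library of their own number. With a replicate block, 2 members and 5 pathway genes were called on batch-corrected counts, and 2 members and 5 pathway genes on raw counts. Of the pathway genes, Enpp1 was lost (adjusted p = 0.0686 and 0.0812) and Slfn5 was lost (0.0696 and 0.0633), and Ly6a and Oasl1 were gained on both tables, while the share of all genes called was 2.72% and 2.95%. Depth limits Ifi205 and AI607873 most, with 27 and 20 raw reads in LSD1i and 1 and 3 in NT.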
